A study of Rattus norvegicus with 18 samples.

Results

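The collagen genes described here are the chains of collagen that lie outside cartilage, measured in the knee synovium of rats. They were chosen by name: every gene probe whose gene name in the array's own annotation reads Col, a number, a and a number, without the 7 cartilage chains Col2a1, Col9a1, Col9a2, Col9a3, Col10a1, Col11a1 and Col11a2. The rule gave 42 probes of 28 genes, out of 41012 probes and 35069 genes on the array. Of the 28 genes, 25 had a probe that the scanner software marked as well above background throughout at least 1 group, and these were tested, among 23606 genes tested in all. The 3 others were Col4a3, a basement membrane chain, Col20a1, a fibril-associated chain, and Col24a1, a fibrillar chain, which were well above background on 7, 1 and 0 of the 18 arrays.

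The animals were male Lewis rats 6 to 8 weeks old. Labelled RNA from knee synovial tissue was hybridised to single-colour Agilent arrays, 3 arrays for each of 6 groups. The controls were normal rats. The AIA group had adjuvant induced arthritis, a joint inflammation raised by an immune adjuvant, and the AIA-cold and AIA-hot groups had it in a cold or a hot model. Rats of both models given WTD, a classic Chinese herbal formula, formed the AIA-cold-WTD and AIA-hot-WTD groups. Sample titles carry letters that differ within these 2 groups, as given below. How the cold and hot models were made is not given in the sources used here, and every group other than the controls carries the arthritis. The labels name 6 rats per group and call each array a biological replicate without saying whether its RNA came from a single rat, so p-values measure only the spread between these samples. The study as a whole sought bioactive compounds of WTD, and the comparisons answer how the arthritis, the 2 models and the formula related to synovial collagen transcripts.

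Collagens are secreted proteins whose chains wind around each other into a helix. Types I, III and V form the banded fibrils of connective tissue, types XII, XIV, XVI and XXII sit on fibril surfaces, type VI forms beaded filaments around cells, type VIII forms hexagonal lattices, and type IV makes the sheet of basement membranes, with types XV and XVIII beside it. In the synovium, fibroblasts of the lining and sublining make most of the interstitial collagen, while type IV surrounds blood vessels and fat cells.

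Probes of the fibrillar chains Col1a1, Col3a1 and Col5a2 share runs of sequence. The Col1a2 probe shares no run of 8 bases with the Col5a2 probe, and whether it lies at a matching place in its chain was not tested. Whether the shared runs affect how separately the array reads these chains was not tested. The probes are printed 5′ to 3′ with rn4 coordinates from the array files, and capitals mark runs of at least 8 bases that occur in both that probe and the Col5a2 probe.
Col1a1, chr10:83637903-83637962: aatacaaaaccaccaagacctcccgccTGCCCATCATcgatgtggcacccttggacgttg
Col1a1, chr10:83637956-83638015: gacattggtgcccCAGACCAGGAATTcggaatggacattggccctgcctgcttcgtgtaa
Col1a2, chr4:29425301-29425360: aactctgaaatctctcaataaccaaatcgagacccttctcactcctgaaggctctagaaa
Col3a1, chr9:44317465-44317524: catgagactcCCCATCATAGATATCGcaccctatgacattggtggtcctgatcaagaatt
Col5a2, chr9:44375560-44375619: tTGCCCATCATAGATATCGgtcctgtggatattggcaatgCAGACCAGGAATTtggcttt
The Col3a1 and Col5a2 probes had a run of 16 bases in common, which was the longest among the 5. The second Col1a1 probe, which ends in the stop codon taa and is the brightest of its gene, had 13 bases in common with Col5a2. The Col1a2 probe had runs of at most 6 bases in common with any of the other 4.

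All levels below are log2 signals minus the 75th percentile of their array, so that 1 unit is a 2-fold difference, and a level of 1 probe is compared only with the same probe on other arrays. Array 1 of the controls stood apart: its 75th percentile signal was 68.9, against 201 to 331 on the other arrays, 43.3% of its probes were well above background against 56.4% to 76.5%, and its mean level of cartilage markers was 5.16 against -1.98 to 1.65. Arrays came from 5 slides, and AIA-hot 1 and 2 lay on a different slide from AIA-hot 3, as AIA-cold-WTD 1 did from AIA-cold-WTD 2 and 3. In the sample titles AIA-cold-WTD 1 carries the letter G, and AIA-cold-WTD 2 and 3 carry the letter Z. AIA-hot-WTD 1, 2 and 3 carry D, G and Z. What the letters stand for is not given in the sources used here. Whether the treatment was the same within a WTD group is therefore not known. All 9 synovial fibroblast markers, Prg4 and Pdpn among them, were well above background on at least 1 array of every group, and their mean level lay between 1.49 and 2.38 on all arrays. In whole tissue, fewer cells of a type and less RNA per cell cannot be told apart.

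Type I collagen is the main fibril protein of connective tissue, and its Col1a1 chain stood higher in the cold and hot models than in normal synovium without passing the test across all genes. Col1a1 levels at the stop-codon probe were 7.11, 7.27 and 7.38 in the controls, 7.38, 7.73 and 7.87 in AIA, 8.80, 8.49 and 8.78 in AIA-cold and 8.85, 9.16 and 7.93 in AIA-hot. With WTD they were 9.28, 7.57 and 7.40 in AIA-cold-WTD and 7.46, 7.99 and 8.16 in AIA-hot-WTD. Every AIA-cold and AIA-hot array lay above every control and AIA array, while the AIA-cold-WTD arrays spanned almost the whole range of the series. AIA-cold exceeded control by 1.44 ± 0.41 (SE, n = 3 arrays per group, 95% interval 0.56 to 2.32), with a limma p of 0.0035 and an adjusted p of 0.100 over all genes. AIA-hot exceeded control by 1.39 ± 0.41 (adjusted p = 0.205). Against AIA the differences were 1.03 (adjusted p = 0.468) for AIA-cold and 0.99 (adjusted p = 0.878) for AIA-hot. Without control 1 the AIA-cold difference from control was 1.37, and leaving out any 1 array of either group kept it between 1.37 and 1.54 with adjusted p from 0.106 to 0.288. Among the 25 collagen genes, Col1a1 had the smallest p of the test for any difference among the 6 groups, 0.0224, with an adjusted p of 0.379.

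The markers of tendon and ligament moved with Col1a1. Of 5 such markers, 3 were tested (Tnmd, Thbs4 and Kera, but not Scx and Mkx), and their mean level was -0.92 to 1.02 in the controls, -0.49 to 1.72 in AIA, 1.77 to 2.66 in AIA-cold, 1.32 to 4.06 in AIA-hot, -0.80 to 3.35 in AIA-cold-WTD and -1.79 to 1.79 in AIA-hot-WTD. Across the 18 arrays the level of Thbs4, a matrix protein abundant in tendon, had a Pearson r of 0.89 with Col1a1, and Tnmd, a tendon membrane protein, one of 0.88. These arrays share scaling and tissue pieces, and the part of such tissue in the Col1a1 difference was not tested.

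The probes of a single type I gene did not give the same picture. Col1a2, the partner chain of Col1a1, was read by its brightest probe, at chr4:29428206-29428265 in rn4, the more downstream of its 2 and called the 3′ probe here. Its levels were 9.57, 8.40 and 8.48 in the controls, 8.48, 8.49 and 8.88 in AIA, 8.54, 8.67 and 8.68 in AIA-cold and 8.65, 8.56 and 8.57 in AIA-hot. They were 8.62, 7.63 and 7.57 in AIA-cold-WTD and 8.50, 9.02 and 8.35 in AIA-hot-WTD, so control 1 was highest and AIA-cold-WTD 2 and 3 were lowest. The Col1a2 probe printed above, further upstream, read 6.17, 6.37 and 6.50 in the controls, 6.04, 6.68 and 6.82 in AIA, 7.70, 7.45 and 7.65 in AIA-cold and 8.16, 8.18 and 6.77 in AIA-hot. On that probe AIA-cold-WTD gave 8.05, 6.36 and 6.51 and AIA-hot-WTD gave 6.54, 7.10 and 7.18, so the AIA-cold arrays, AIA-hot 1 and 2 and AIA-cold-WTD 1 were high, as for Col1a1. There AIA-cold exceeded control by 1.25 ± 0.43 (SE, adjusted p = 0.148) and AIA-hot exceeded control by 1.35 (adjusted p = 0.245).

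Over the 18 arrays the 2 probes of Col1a2 had an r of 0.14 with each other, but the upstream Col1a2 probe had an r of 0.98 with the stop-codon probe of Col1a1. Likewise the 3′ probe of Col1a1, at chr10:83638177-83638236 and so beyond the stop codon, had an r of 0.96 with the 3′ probe of Col1a2, and 0.30 with the stop-codon probe of its own gene. The scanner signals of the 3′ probes spanned a narrow range, 52510 to 113484 (2.16-fold) for Col1a2 and 29595 to 86993 (2.94-fold) for Col1a1. The signals of the coding probes spanned 9536 to 165351 (17.3-fold) at the Col1a1 stop codon and 4973 to 83555 (16.8-fold) upstream in Col1a2. The lowest signal of all 4 probes was on control 1, although its scaled Col1a2 level was the highest of the series. No gene spot was marked as saturated on any array, and why the 3′ probes spanned so little was not tested. The Col1a1 difference between AIA-hot and control was -0.031 on the 3′ probe, against 1.39 on the stop-codon probe and 1.75 (adjusted p = 0.174) on the other coding probe. Between AIA-cold and control it was 0.064 ± 0.32 (SE, adjusted p = 0.932) on the 3′ probe, against 1.44 on the stop-codon probe.

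**Figure D1:**
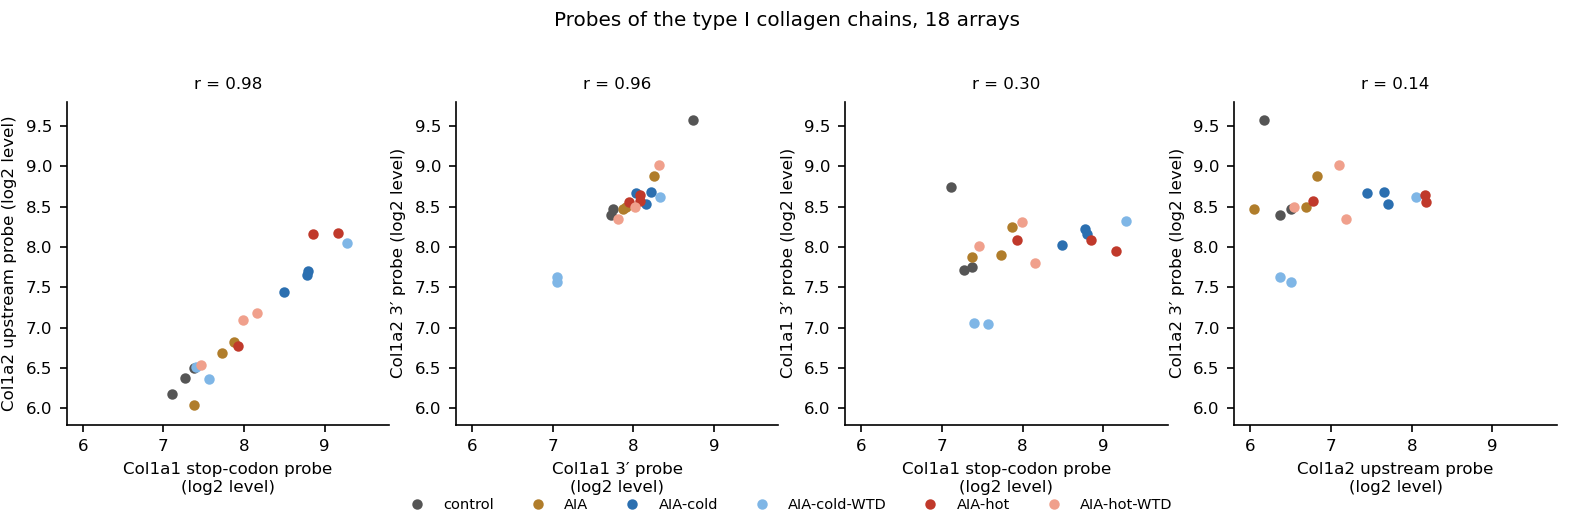
Each panel sets the levels of 2 type I collagen probes against each other (log2 signal minus the array's 75th percentile on both axes), 1 point for each of the 18 arrays, coloured by group. The coding probes of Col1a1 and Col1a2 lie along a line (r of 0.98), as do the 3′ probes (0.96), while the 2 probes of Col1a1 (0.30) and of Col1a2 (0.14) do not.

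Type III and type V collagens, which copolymerise with type I, had their highest levels on the same few arrays. Col3a1 read 8.46, 9.02 and 9.02 in the controls, 8.76, 8.78 and 9.49 in AIA, 9.44, 9.11 and 9.69 in AIA-cold, 9.81, 8.56 and 8.48 in AIA-cold-WTD, 9.69, 9.52 and 8.66 in AIA-hot and 8.95, 9.03 and 9.14 in AIA-hot-WTD. Col5a1, the chain that helps to start fibrils, read 4.41, 4.05 and 4.16 in the controls, 3.72, 3.82 and 4.17 in AIA, 4.48, 3.86 and 4.81 in AIA-cold, 5.48, 3.76 and 3.88 in AIA-cold-WTD, 5.35, 5.15 and 3.73 in AIA-hot and 3.94, 4.20 and 4.64 in AIA-hot-WTD. For both genes AIA-cold-WTD 1 was the highest array, and AIA-hot 1 and 2 lay far above AIA-hot 3, so AIA-hot and AIA-cold-WTD each overlapped with control and AIA. The 3 AIA-cold arrays lay above the 3 controls in Col3a1 but not in Col5a1. The Col5a1 difference between AIA-hot and AIA was 0.84 ± 0.46 (SE, adjusted p = 0.878). Col5a2 ranged from 5.21 to 6.93 with the same 3 arrays on top, and its 3 probes had an r of 0.99 with each other. Col5a3, by contrast, ranged only from 4.12 to 5.17 and was lowest on control 1. AIA exceeded control by 0.46 ± 0.18 in Col5a3 (adjusted p = 0.756), and by 0.27 without control 1. Col27a1, a fibrillar chain found in cartilage and other tissues, was 1.97 on control 1 and -1.65 to -0.21 on the other 17 arrays.

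**Figure D2:**
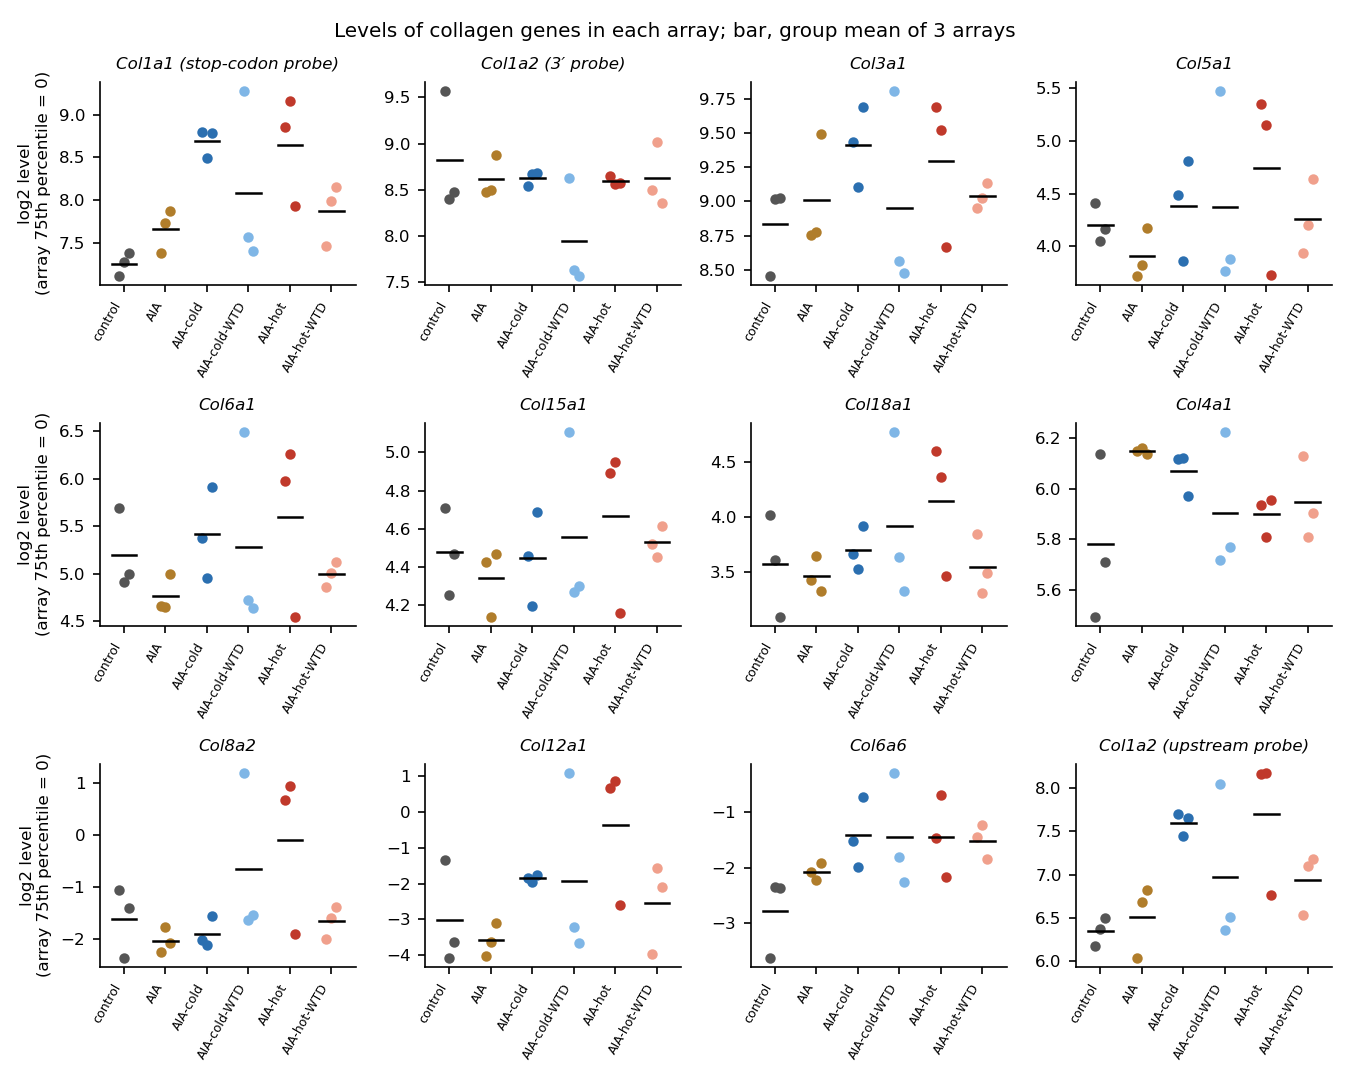
Levels of 11 collagen genes, Col1a2 by both probes, on every array (points, coloured by group) with a bar at the mean of the 3 arrays of a group; the vertical scale is log2 signal minus the array's 75th percentile and differs between panels. AIA-cold-WTD 1 and AIA-hot 1 and 2 stand above the other arrays of their groups for Col5a1 and Col6a1, and Col4a1 stays between 5.50 and 6.23.

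That split within groups ran through most of the family. AIA-cold-WTD 1 was among the 3 highest arrays for 18 of the 25 collagen genes and was the highest for 14, against 28.6% of all genes tested that had it among their 3 highest. AIA-hot 1 and AIA-hot 2 were each among the 3 highest for 13 of the 25, against 15.9% and 17.9% of all genes. Control 1 was there for 7 collagen genes, against 41.0% of all genes, AIA-cold 3 for 6, and every other array for at most 4. The median deviation of the 25 genes from their own means was 0.87 on AIA-cold-WTD 1, 0.60 on AIA-hot 1 and 0.64 on AIA-hot 2, against -0.26 and -0.44 on AIA-cold-WTD 2 and 3 and -0.39 on AIA-hot 3. Most of the variance of a typical collagen gene lay inside groups: the median share between groups was 23.8%, and 32.4% over all genes. Means of 3 arrays also differ through the spread within groups, so neither share is the part due to the groups.

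**Figure D3:**
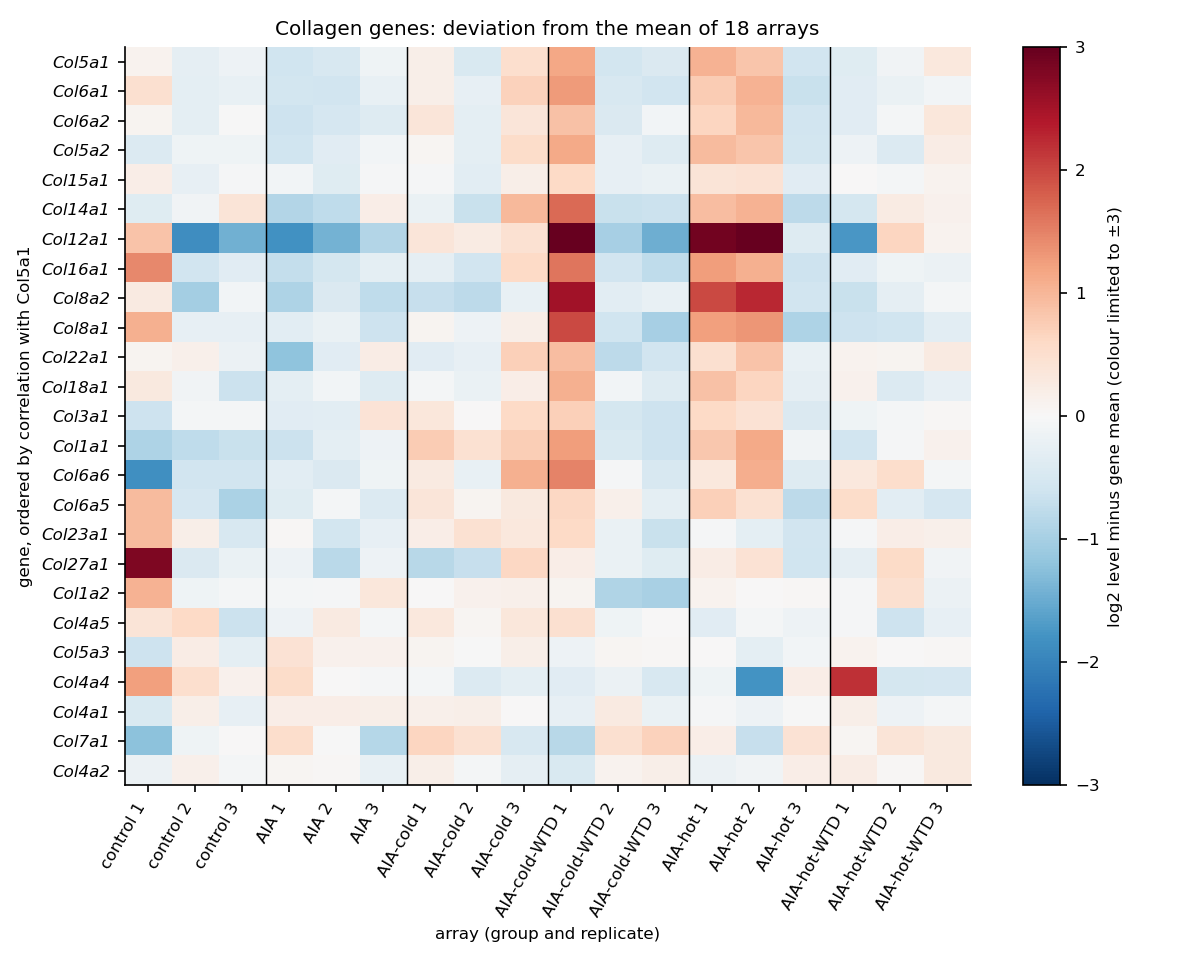
Deviation (colour, log2 units) of each of the 25 tested collagen genes from its own mean over the 18 arrays, with genes ordered by their correlation with Col5a1 and arrays by group. The columns of AIA-cold-WTD 1 and both AIA-hot 1 and 2 are high for most genes, while Col4a1, Col4a2, Col5a3 and Col7a1 do not follow them.

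Fat cell markers went the other way on those arrays. The mean level of 8 adipocyte markers was 1.04 on AIA-cold-WTD 1, 2.39 on AIA-hot 2 and 3.60 on AIA-hot 1, then 3.20 on AIA-cold 3 and 2.08 on control 1, against 3.91 to 4.67 on the other 13. Adipoq, the fat cell hormone adiponectin, had an r of -0.74 with Col5a1. The share of fat in the tissue pieces was not measured, and its part in the collagen levels was not tested. Over the 18 arrays, 11 of the 24 other collagen genes had an r above 0.8 with Col5a1 and 5 had one below 0. The nearest were Col6a1, Col6a2 and Col5a2 (0.95 each), Col15a1 (0.93), Col14a1 (0.92) and Col12a1 (0.89). The 5 below 0 were Col4a2 (-0.62), Col7a1 (-0.49), Col4a1 (-0.45), Col4a4 (-0.39) and Col5a3 (-0.34).

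Type VI collagen anchors cells to the surrounding matrix. Col6a1 read 5.69, 4.92 and 5.00 in the controls, 4.67, 4.65 and 5.00 in AIA, 5.38, 4.96 and 5.91 in AIA-cold, 6.49, 4.73 and 4.64 in AIA-cold-WTD, 5.98, 6.26 and 4.55 in AIA-hot and 4.86, 5.00 and 5.13 in AIA-hot-WTD. The 3 AIA arrays were low, and the highest arrays were again AIA-cold-WTD 1 and AIA-hot 1 and 2, so AIA-hot overlapped with every group. Col6a2, its partner, ranged from 1.29 to 2.89, and AIA-hot exceeded AIA by 0.86 ± 0.38 (SE, adjusted p = 0.878). Without AIA-cold-WTD 1 and AIA-hot 1 and 2 that Col6a2 difference was -0.073. Col6a5 and Col6a6 are long chains that can stand in for the third chain of type VI. Col6a6 read -3.63 (not well above background), -2.35 and -2.36 in the controls and -2.08, -2.22 and -1.92 in AIA. Its levels were -1.51, -1.99 and -0.72 in AIA-cold, -0.29, -1.80 and -2.26 in AIA-cold-WTD, -1.47, -0.68 and -2.17 in AIA-hot and -1.45, -1.24 and -1.84 in AIA-hot-WTD. Every array of the 5 arthritis groups lay above the 3 controls in Col6a6. In the models it exceeded control by 1.37 with cold (adjusted p = 0.169) and 1.34 with hot (adjusted p = 0.318), and after WTD by 1.33 with cold (adjusted p = 0.255) and 1.27 with hot (adjusted p = 0.293), each ± 0.51 (SE). These 4 differences share the control arrays. Without control 1, cold exceeded control by 0.95, hot by 0.92 and hot with WTD by 0.84.

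Among the chains that decorate fibrils, Col12a1 had the widest range, and it is named with its values because of that range after they were seen. It links fibrils in tendon, ligament and other loaded tissue. Its levels were -1.35, -4.07 and -3.64 in the controls, -4.03, -3.63 and -3.09 in AIA, -1.84, -1.96 and -1.75 in AIA-cold, 1.10, -3.20 and -3.67 in AIA-cold-WTD, 0.68, 0.87 and -2.61 in AIA-hot and -3.96, -1.56 and -2.11 in AIA-hot-WTD. AIA-cold arrays lay close together, AIA arrays were at the low end, and each other group spread over several units. The AIA-hot difference was 2.67 ± 1.17 from control (adjusted p = 0.385) and 3.23 from AIA (adjusted p = 0.878), and 3 of its 18 arrays were not well above background. Col14a1, which regulates fibril diameter, ranged from -0.72 to 1.85, Col16a1 from 4.38 to 6.75 and Col22a1, a chain of tissue junctions such as that of muscle and tendon, from 0.97 to 3.11. AIA-cold-WTD 1 was the highest array for all 4 genes, and no difference in them passed the test.

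Type VIII collagen, made by endothelial and mesenchymal cells, showed the same arrays. Col8a2 read -1.06, -2.35 and -1.40 in the controls, -2.25, -1.76 and -2.07 in AIA, -2.00, -2.11 and -1.55 in AIA-cold, 1.19, -1.63 and -1.54 in AIA-cold-WTD, 0.66, 0.94 and -1.90 in AIA-hot and -1.99, -1.59 and -1.37 in AIA-hot-WTD. AIA-hot 1 and 2 and AIA-cold-WTD 1 were above 0, and the other 15 arrays were below -1. AIA-hot exceeded AIA by 1.93 ± 0.73 (SE, adjusted p = 0.878) and AIA-cold lay 1.79 below AIA-hot (difference -1.79, adjusted p = 0.830). The change with WTD was 2.78 ± 1.04 larger in the cold than in the hot model (95% interval 0.56 to 5.00, adjusted p = 0.988). Without those 3 arrays, AIA-cold minus AIA-hot was 0.0070. Col8a1 ranged from -0.75 to 2.24 with the same 3 arrays highest.

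Of the basement membrane chains, Col4a1 and Col4a2 kept within a narrow range. Col4a1, which forms the commonest type IV network together with Col4a2, read 5.50, 6.14 and 5.71 in the controls, 6.15, 6.16 and 6.14 in AIA, 6.12, 6.12 and 5.97 in AIA-cold, 5.72, 6.23 and 5.77 in AIA-cold-WTD, 5.93, 5.81 and 5.96 in AIA-hot and 6.13, 5.81 and 5.90 in AIA-hot-WTD. The 3 AIA arrays lay close together at the level of the highest control, so the groups overlapped, and AIA exceeded control by 0.37 ± 0.17 (SE, adjusted p = 0.756) on average, and by 0.22 without control 1. Col4a2 ranged from 1.74 on AIA-cold-WTD 1 to 2.50, Col4a5 from -2.41 to -1.17 and Col4a4, well above background on 9 arrays, from -5.78 to -1.78. Col15a1, a chain between basement membranes and fibrils, read 4.71, 4.25 and 4.47 in the controls, 4.42, 4.14 and 4.46 in AIA, 4.46, 4.20 and 4.69 in AIA-cold, 5.11, 4.26 and 4.30 in AIA-cold-WTD, 4.89, 4.95 and 4.16 in AIA-hot and 4.52, 4.45 and 4.61 in AIA-hot-WTD. Col18a1, the precursor of endostatin, read 4.01, 3.61 and 3.09 in the controls, 3.43, 3.64 and 3.33 in AIA, 3.66, 3.53 and 3.92 in AIA-cold, 4.78, 3.64 and 3.33 in AIA-cold-WTD, 4.60, 4.36 and 3.46 in AIA-hot and 3.84, 3.31 and 3.49 in AIA-hot-WTD. Both had high r with Col5a1 (0.93 and 0.81), unlike Col4a1 and Col4a2, and their groups overlapped in every comparison of AIA-hot with AIA or control. Col7a1, the anchoring fibril chain, ranged from -3.43 to -1.51 and Col23a1, a transmembrane collagen well above background on 10 arrays, from -4.28 to -2.68.

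Col4a1 has 2 probes that lie far apart, and they too disagreed, with an r of -0.17 over the 18 arrays. The first has a GC content of 73.3%. The second, used here, has 55% and ends in the bases taa. Whether these are the stop codon of the gene was not tested.
Col4a1, chr16:83045409-83045468: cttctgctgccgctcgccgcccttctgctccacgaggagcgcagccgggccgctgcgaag
Col4a1, chr16:83157546-83157605: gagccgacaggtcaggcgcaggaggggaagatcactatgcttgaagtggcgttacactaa
Col4a1 and Col4a2 are transcribed away from each other from a common stretch, which is shown because the chains are paired in 1 network. In RefSeq's GRCr8 assembly their starts are 77 bases apart, and the 76 bases between them, chr16:84885521-84885596 on the plus strand, have a GC content of 78.9%; capitals mark GGGCGG, which is the GC box core, read on the other strand.
Stretch between Col4a2 and Col4a1: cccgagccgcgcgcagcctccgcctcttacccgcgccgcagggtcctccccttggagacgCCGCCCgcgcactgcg
GGGCGG matched once on either strand, as it did at least once in 18.1% of 33469 promoter windows of the same length, and CCAAT matched nowhere in it and in 13.0% of the windows. Of the 28 genes, 22 had a RefSeq promoter entry.

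Chains that assemble together were compared across the 18 arrays, with 9 of 12 chosen pairs measured and two-sided permutation p-values adjusted over the 9. The permutations shuffled all arrays freely, so these p-values take no account of groups or slides. Col5a1 and Col5a2 had an r of 0.95 (permutation p = 1e-05, the smallest that 100000 permutations can give, adjusted 4.5e-05) and a Spearman rho of 0.81, and Col6a1 and Col6a2 an r of 0.92 (the same adjusted permutation p) and a rho of 0.91. Col1a1 had an r of 0.84 with Col3a1 (adjusted permutation p = 0.00016, rho 0.81), of 0.77 with Col5a1 (0.00032, rho 0.61) and of 0.71 with Serpinh1, the collagen chaperone HSP47 (0.0011, rho 0.54). High r was not limited to such pairs. Col5a1 had an r of 0.95 with both Col6a1 and Col6a2, and Col1a1 had one of 0.89 with Thbs4. Of the 24 other collagen genes, 5 had an r below 0 with Col5a1. Col8a1 and Col8a2 had an r of 0.85 (adjusted permutation p = 0.00016) but a rho of 0.48 (adjusted permutation p = 0.071). Col4a1 and Col4a2 reached an r of 0.37 (adjusted permutation p = 0.164, rho 0.28), Col1a1 and Col1a2 0.11 (0.703, rho 0.33) on their brightest probes, and Col1a1 and the cartilage chain Col2a1 -0.10 (0.703, rho 0.09). Without the 2 arrays farthest from the first gene's median, r was 0.89 for Col5a1 and Col5a2, 0.85 for Col6a1 and Col6a2, 0.79 for Col1a1 and Col3a1, 0.62 for Col1a1 and Col5a1, 0.67 for Col8a1 and Col8a2 and 0.55 for Col1a1 and Serpinh1. It was 0.11 for Col1a1 and Col1a2, 0.29 for Col4a1 and Col4a2 and -0.11 for Col1a1 and Col2a1. AIA-hot 1 and 2 and AIA-cold-WTD 1 were also left out together, a choice made after their high collagen levels were seen. Without them r was 0.49 for Col1a1 and Col5a1 (adjusted permutation p = 0.143), 0.36 for Col8a1 and Col8a2 (0.287) and 0.37 for Col1a1 and Serpinh1 (0.287). Leaving out arrays by their high levels narrows the range compared, so the smaller r cannot show what these relations rest on. Over the same 15 arrays r was 0.73 for Col1a1 and Col3a1 (adjusted permutation p = 0.0068), 0.81 for Col5a1 and Col5a2 and 0.79 for Col6a1 and Col6a2 (0.0014 for both). The arrays are of 6 groups, and over all 18 arrays r of the deviations from group means was 0.88, 0.94 and 0.92 for these 3 pairs. It was 0.90 for Col1a1 and Col5a1, 0.95 for Col8a1 and Col8a2 and 0.72 for Col1a1 and Serpinh1. For Col1a1 and Col1a2 it was 0.45, for Col4a1 and Col4a2 0.56 and for Col1a1 and Col2a1 0.05. These deviations include AIA-hot 1 and 2 and AIA-cold-WTD 1.

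**Figure D4:**
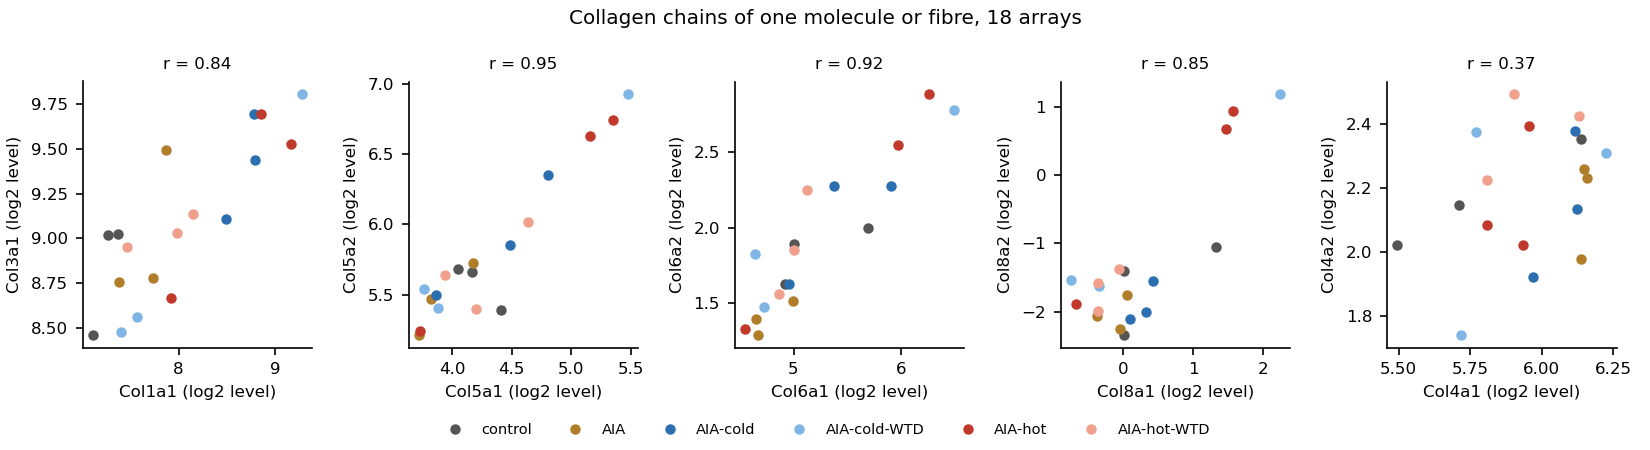
Levels of 5 pairs of collagen chains on the 18 arrays (log2 signal minus the array's 75th percentile on both axes), 1 point per array, coloured by group. The type V and type VI pairs lie along a line (r of 0.95 and 0.92), 3 arrays stand far above the others in the type VIII pair, and the type IV pair scatters (0.37).

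In the tests across all genes, no collagen gene passed an adjusted p of 0.05 in any of the 11 contrasts (limma, Benjamini-Hochberg). Few genes of any kind did: 0% of all genes in AIA against control, 0.534% in AIA-cold against control, 0.0551% in AIA-hot against control, 0% for each of AIA-cold and AIA-hot against AIA, and 0.00847% in AIA-cold against AIA-hot. With WTD the shares were 0.00847% in AIA-cold-WTD against AIA-cold, 0% in AIA-hot-WTD against AIA-hot, 0.0297% and 0.0805% in AIA-cold-WTD and AIA-hot-WTD against control, 0% for the difference between the WTD effects, and 0.0297% in the test of any difference among the groups, where again 0 of 25 collagen genes passed. A count of 0 among 25 genes is therefore near the background in every contrast. At an unadjusted p under 0.05, the collagen genes numbered 2 in AIA against control (6.29% of all genes), 2 in AIA-cold against control (18.7%), 3 in AIA-hot against control (12.1%), 1 in AIA-cold against AIA (9.04%) and 4 in AIA-hot against AIA (5.13%). They numbered 1 in AIA-cold against AIA-hot (5.49%), 1 in AIA-cold-WTD against AIA-cold (6.08%), 0 in AIA-hot-WTD against AIA-hot (2.29%), 2 in AIA-cold-WTD against control (15.1%), 1 in AIA-hot-WTD against control (13.5%) and 1 for the difference between the WTD effects (4.19%). Limma's array weights, which gave AIA-hot 1, 2 and 3 weights of 2.87, 0.683 and 0.369 and control 1 one of 0.0874, passed 11 collagen genes in AIA-hot against control (17.3% of all genes) and 5 in AIA-cold against control (26.4%), all higher.

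Groups that did not overlap at all were counted too. In AIA-cold against AIA, 8 of the 25 genes did not overlap, against 24.2% of all genes: Col1a1, Col6a2, Col6a5, Col8a1, Col12a1 and Col23a1 were higher in all 3 AIA-cold arrays and Col4a1 and Col4a4 were lower. In AIA-cold against control 4 did not (24.9%), Col1a1, Col3a1 and Col6a6 higher and Col4a4 lower. The count was 4 in AIA-hot against AIA (9.9%), with Col1a1 and Col12a1 higher and Col4a1 and Col5a3 lower, and 2 in AIA-hot against control (13.1%), Col1a1 and Col6a6. It was 3 in AIA against control (10.7%), 3 in AIA-cold against AIA-hot (15%), 0 in AIA-cold-WTD against AIA-cold (14.4%), 0 in AIA-hot-WTD against AIA-hot (7.08%), 3 in AIA-cold-WTD against control (16.3%) and 4 in AIA-hot-WTD against control (18%). Col1a1 and Col6a6 were in that count, as higher, for each of the 5 arthritis groups against the same 3 controls. For Col1a1 some gaps were very narrow: the highest control was 7.377, the lowest AIA array 7.378 and the lowest AIA-cold-WTD array 7.403. These are levels of the stop-codon probe. As given above, the 3′ probe of Col1a1 differed little from control in AIA-cold and AIA-hot. Some of the gaps named lie near background. Col4a4 was well above background on 0 of 3 AIA, 1 of 3 control and 2 of 3 AIA-cold arrays. Col23a1 was so on 0 of 3 AIA and 3 of 3 AIA-cold arrays, and Col12a1 on 1 of 3 AIA arrays.

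Read as a family, the collagen genes leaned upward in the models. Many of them moved together over the arrays, as given above, so the counts of genes here are not counts of independent results. AIA-hot lay above AIA in 19 of the 25 genes, with a median difference of 0.63, while 43.7% of all genes lay above with a median of -0.04. By type, the differences were above 0 in all 4 fibril-associated genes (median 0.98), all 4 of type VI (0.73), both of type VIII (1.42), both of types XV and XVIII (0.50) and 5 of 7 fibrillar genes (0.39), but in 1 of 4 type IV genes (-0.23). AIA-cold lay above AIA in 21 of 25 genes (median 0.40, 48.3% of all genes), AIA-hot above control in 19 (median 0.39, 43.3%) and AIA-cold above control in 17 (median 0.13, 46.1%). AIA itself lay above control in 6 of 25 (median -0.20, 46.5%), AIA-cold above AIA-hot in 11 (median -0.18, 51.2%), AIA-cold-WTD above control in 17 (median 0.12, 45.9%) and AIA-hot-WTD above control in 14 (median 0.05, 42.4%). Against AIA, the median of AIA-hot was 0.45 without AIA-hot 1, 0.42 without AIA-hot 2 and 0.999 without AIA-hot 3. Leaving out AIA-hot 1 and 2 (and AIA-cold-WTD 1) leaves AIA-hot 3 alone in its group. The median was then -0.17 against AIA and -0.29 against control. Those arrays were chosen after their high collagen levels were seen, which itself lowers the AIA-hot mean, so this cannot show what the lean rests on. On the slide that held AIA 2 and 3 with AIA-hot 1 and 2, 19 of 25 genes were higher in AIA-hot, with a median of 0.81. With slide as a fixed term, Col1a1 (1.21, adjusted p = 0.0391) and Col8a2 (2.72, adjusted p = 0.0113) passed in AIA-hot against AIA, against 0.602% of all genes, and that fit too compares only those 4 arrays.

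**Figure D5:**
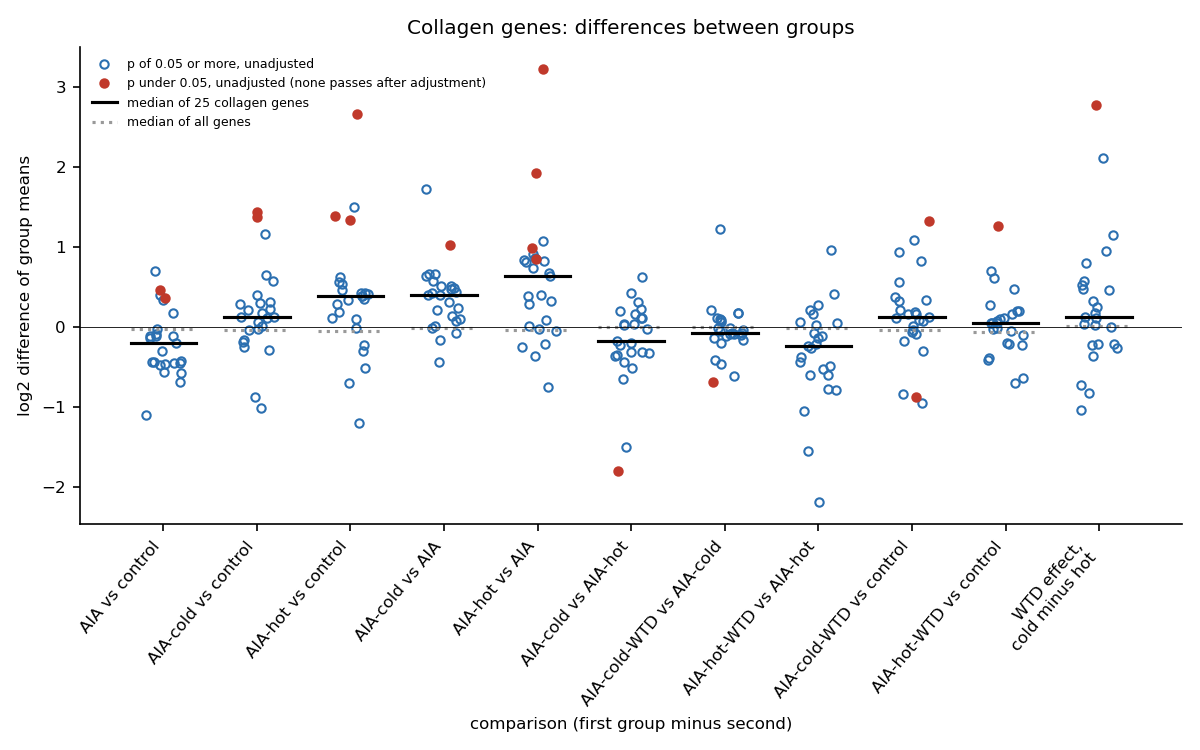
Log2 differences of group means for the 25 tested collagen genes (points) in each of 11 comparisons (first group minus second, 3 arrays per group), with black bars at the median of the 25 genes and dotted grey bars at that of all genes; filled red points have an unadjusted p under 0.05. The median lies furthest above that of all genes in AIA-hot against AIA (0.63 and -0.04), and no gene passed an adjusted p of 0.05.

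No collagen gene passed the test between a model with WTD and the same model without it. In AIA-cold-WTD against AIA-cold, 8 of 25 genes lay above 0 with a median of -0.07, against 51% of all genes, and the median was -0.43 without AIA-cold-WTD 1. Col1a2 differed by -0.69 ± 0.31 (SE, adjusted p = 0.800) on its 3′ probe, and -0.88 against control (adjusted p = 0.228). On its upstream probe the difference from control was 0.63. Col1a1 differed by -0.61 ± 0.41 (95% interval -1.49 to 0.27). On the slide shared by AIA-cold 1 to 3 and AIA-cold-WTD 1, 19 of 25 genes were higher in the treated array, with a median of 0.66. The change with WTD was larger in the cold than in the hot model for 17 of 25 genes (51.7% of all genes, median 0.13), and the median of that difference was -0.999 without AIA-cold-WTD 1 and AIA-hot 1 and 2. In AIA-hot-WTD against AIA-hot, 8 of 25 genes lay above 0 with a median of -0.23, against 47.3% of all genes. Col1a1 differed by -0.78 (95% interval -1.66 to 0.10) and Col8a2 by -1.55 (-3.12 to 0.02). On the slide shared by AIA-hot 3 and the 3 AIA-hot-WTD arrays the sign was opposite, with 20 of 25 genes higher after WTD and a median of 0.37.

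The genes that make, crosslink and degrade collagen were followed through gene lists. Of 22 folding and modification genes, 19 were tested and 0 passed in any contrast, and the same held for 12 of 14 processing and crosslinking genes, 18 of 20 fibril-associated matrix genes, 13 of 15 breakdown genes, 7 of 10 collagen receptors, 8 of 12 basement membrane partners and 5 of the 7 cartilage collagens. Of 18 genes of TGF beta signalling and fibrosis, 17 were tested and 1 passed in 1 contrast: Il1b, the inflammatory cytokine interleukin 1 beta, rose by 2.11 ± 0.32 (SE) in AIA-hot against control (adjusted p = 0.0343). That call held in 7 of 17 alternatives. It was lost without AIA-hot 1 (adjusted p = 0.103), AIA-hot 2 (0.157), control 1 (0.0918) or control 3 (0.0545), with slide as a random (0.118) or fixed block (0.272), with normexp background correction (0.0813), without a filter on dim probes (0.0725), with only the groups compared in the fit (0.859) and without AIA-hot 1 and 2 and AIA-cold-WTD 1 together (0.169). In AIA-hot against AIA, 17 of 19 folding genes (median 0.28), 10 of 12 processing genes (0.43), 16 of 18 matrix genes (0.60), 8 of 13 breakdown genes (0.68), 5 of 8 basement membrane partners (0.01), 5 of 7 receptors (0.11), 13 of 17 TGF beta and fibrosis genes (0.26) and 5 of 5 cartilage collagens (1.08) lay above 0, against 43.7% of all genes. With AIA-hot 3 alone in its group, after the 3 arrays named above were left out, the counts were 4 of 19 folding genes (median -0.11), 5 of 12 processing genes (-0.14), 6 of 18 matrix genes (-0.21), 2 of 13 breakdown genes (-0.35), 2 of 8 basement membrane partners (-0.057), 2 of 7 receptors (-0.12), 6 of 17 TGF beta and fibrosis genes (-0.098) and 5 of 5 cartilage collagens (0.69), against 43.3% of all genes.

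Among those genes, Lox, which oxidises collagen for crosslinking, followed the collagen-high arrays. Its levels were 4.65, 2.66 and 2.18 in the controls, 2.35, 2.96 and 3.13 in AIA, 4.26, 3.71 and 4.32 in AIA-cold, 5.09, 3.08 and 2.78 in AIA-cold-WTD, 5.00, 5.23 and 2.97 in AIA-hot and 3.32, 3.09 and 3.56 in AIA-hot-WTD, with an r of 0.85 with Col5a1. AIA-hot exceeded AIA by 1.59 ± 0.70 (adjusted p = 0.878). Serpinh1 read 4.52, 5.14 and 4.90 in the controls, 5.18, 4.73 and 5.12 in AIA, 5.12, 4.91 and 5.10 in AIA-cold, 5.48, 4.95 and 4.88 in AIA-cold-WTD, 5.79, 5.98 and 4.89 in AIA-hot and 4.95, 4.84 and 5.25 in AIA-hot-WTD. Ctsk, a collagen-cleaving protease, ranged from 3.48 on control 1 to 5.85 on AIA-cold-WTD 1 and had an r of 0.85 with Col5a1. The collagenase gene Mmp13 swung from -3.65 on AIA-hot 3 to 3.72 on AIA-hot 2, so its groups overlapped widely. Dcn, the fibril-binding proteoglycan decorin, was 6.05 on control 1 and 7.02 to 7.90 elsewhere, with an r of 0.30 with Col5a1. P4ha1, a prolyl hydroxylase subunit, ranged from 0.40 to 1.49, Plod2, a lysyl hydroxylase, from -0.98 to 1.96 with control 1 highest, and Tgfb1, which drives collagen synthesis, from -0.41 to 0.28.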

How the data were processed

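Total RNA from the 18 synovial samples was amplified and labelled with Cy3, per the labels' protocols. Signals were extracted with Agilent Feature Extraction 10.7, and limma was named without a version, per the submitters' processing notes. The deposited scanner files hold an intensity per spot, already background-subtracted and scaled by that software; the deposited series table holds log2 values, centred in a way not given in the sources used here, and was used as an alternative only. Here log2 of the processed signal was taken, outlier spots were left out, spots of a probe were averaged, and levels were set relative to the 75th percentile of the gene probes of each array. A probe had to be marked well above background throughout at least 1 group (28271 of 41012 did), and the brightest such probe stood for its gene. All 18 arrays entered 1 limma fit (limma 3.58.1, R 4.3.3) with Benjamini-Hochberg adjustment over all genes in each contrast and a threshold of 0.05, tested on simulated data. Correlations used 100000 permutations over all arrays, without regard to group or slide. Precision is limited by 3 arrays per group.

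The collagen genes, gene lists and marker lists were chosen with earlier results of these data known. Array values were given for Col1a1, Col1a2, Col3a1, Col5a1, Col6a1, Col4a1, Col15a1, Col18a1, any collagen gene called and the 3 with the smallest F-test p. List genes named were those called and, always, Serpinh1, P4ha1, Plod2, Lox, Mmp13, Ctsk, Dcn and Tgfb1. Alternatives were normexp background correction (offset 50), quantile normalization, the series table, no or a stricter filter (9 of 18 arrays), the mean of a gene's probes, slide as random or fixed block, array weights, only the groups compared, and each array left out in turn. Other treatment groups of the study were not analysed here.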

Additional observations from a re-analysis of the deposited data

How the results depend on the processing

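No paired analysis was possible because the replicate numbers only follow the order of the samples and tie no arrays across groups. The count of collagen genes called was 0 under the background, normalization, series table, filter, probe mean, random block and smaller-fit alternatives and with any 1 array left out. Array weights, which ran from 0.0874 for control 1 and 0.194 for AIA-cold-WTD 1 to 5.15 for AIA-cold-WTD 2, gave 5 in AIA-cold against control (26.4% of all genes), 11 in AIA-hot against control (17.3%), 1 in AIA-cold against AIA (4.9%), 2 in AIA-hot against AIA (1.11%), 5 in AIA-cold against AIA-hot (16.4%), 3 in AIA-cold-WTD against AIA-cold (18.1%), 2 in AIA-cold-WTD against control (24.2%), 2 for the difference between WTD effects (5.81%) and 17 in the F test (48.2% of all genes). The cause was not tested. Over all genes, AIA-cold against control gave 126 calls, 0 without AIA-cold 2, 1 without AIA-cold 1, 45 without control 1, 79 without AIA-cold 3, 297 without control 2, 0 with only the groups compared, 0 with slide as a random block and 6221 with array weights. Slide as a fixed block gave 2 in AIA-hot against AIA (0.602% of all genes) and 1, Col8a2 (3.08, adjusted p = 0.0203), in AIA-cold-WTD against AIA-cold (0.136%), where the only slide with both groups holds AIA-cold-WTD 1 alone against AIA-cold 1 to 3. It could not be fitted for contrasts between slides 1 to 3 and slides 4 and 5. Leaving out AIA-hot 1 and 2 and AIA-cold-WTD 1, an alternative chosen after seeing the data, gave 1 call, Col1a1, in AIA-cold-WTD against AIA-cold (0.347% of all genes), a fit in which the choice of arrays by their collagen levels itself lowers the treated mean, and turned Col6a2 in AIA-hot against AIA (-0.073) and Col8a2 in AIA-cold against AIA-hot (0.0070).

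Other probes, also an alternative chosen after seeing the data, turned Col1a1 in AIA-hot against control (-0.031) and Col1a2 in AIA-cold-WTD against control (0.63). For Col1a1 and Col1a2 the probe pairs gave r of 0.98, 0.96 and 0.93 (adjusted permutation p = 3.6e-05) and -0.10. With the 3′ probe of Col1a1, r was 0.39 with Col3a1, 0.40 and 0.45 with the 2 Col5a1 probes, -0.0011 with Serpinh1 and 0.22 with Col2a1. The other Col4a1 probe gave -0.17 with Col4a2. Without the 3 arrays named above r was 0.49 for Col1a1 and Col5a1, 0.36 for Col8a1 and Col8a2 and 0.37 for Col1a1 and Serpinh1. Without control 1, r was 0.40 for Col1a1 and Col1a2 and 0.18 for Col1a1 and Col2a1. Of 316 gene values under alternatives, 298 kept direction and side of the threshold, 14 newly passed and 4 reversed. None of the 18 gene results followed had passed in the main fit, so no call could be lost. Normexp and no filter shifted the median of all genes against control by -0.11 to -0.18 and -0.11 to -0.20.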
